A study of Homo sapiens with 4 samples.

Results

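The alpha and beta tubulins are the building blocks of microtubules, and the 10 genes described here are the alpha isotypes TUBA1A, TUBA1B and TUBA1C and the beta isotypes TUBB, TUBB2A, TUBB2B, TUBB3, TUBB4A, TUBB4B and TUBB6. They were taken by name, after Entrez gene IDs had been given symbols, out of 27685 gene IDs measured by RNA-seq. All 10 were found, each on 1 entry per library. The cells were of the human line NCC-IT-A3, labelled as embryonal carcinoma, a germ cell tumour whose cells resemble those of the early embryo. Both groups were kept for 4 days in RPMI medium with serum. One group received 100 nM barasertib, which inhibits the mitotic kinase Aurora B, and the other the solvent DMSO (n = 2 libraries each). No genotype change is given for either group. Whether the replicates were grown as separate cultures is not stated in the labels, so p-values here reflect the spread between libraries alone, which may be technical.

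Each microtubule subunit is a heterodimer of 1 alpha and 1 beta tubulin chain, and vertebrates encode several near-identical versions of each, the isotypes, which differ mainly in their acidic tails. TUBA1B, TUBA1C, TUBB and TUBB4B are widely made in dividing cells. TUBA1A, TUBB2A, TUBB2B, TUBB3 and TUBB4A are known for their high levels in neurons, and TUBB6 for its presence in many cells outside the brain. Tubulin transcripts are also autoregulated: when soluble tubulin is in excess, the protein TTC5 binds the start of the nascent tubulin chain on the ribosome and the transcript is degraded. Aurora B is the kinase that releases wrongly attached spindle microtubules from chromosomes, and cells need it to divide their cytoplasm.

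Because autoregulation reads the start of the nascent chain, the first 30 coding bases of each isotype are shown, read from GENCODE v29 transcripts (GRCh38), with the first 12 bases in capitals.
TUBA1A: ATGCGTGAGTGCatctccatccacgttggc
TUBA1B: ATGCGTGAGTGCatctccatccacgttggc
TUBA1C: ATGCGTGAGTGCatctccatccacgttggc
TUBB: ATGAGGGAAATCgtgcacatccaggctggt
TUBB2A: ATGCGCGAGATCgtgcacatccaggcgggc
TUBB2B: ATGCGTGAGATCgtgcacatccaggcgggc
TUBB3: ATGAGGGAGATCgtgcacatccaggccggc
TUBB4A: ATGCGGGAGATCgtgcacctgcaggccggc
TUBB4B: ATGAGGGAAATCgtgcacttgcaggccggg
TUBB6: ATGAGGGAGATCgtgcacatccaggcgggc
The 3 alpha isotypes had the same first 12 bases. Among the 7 beta isotypes, TUBB and TUBB4B shared theirs, TUBB3 and TUBB6 shared theirs, and TUBB2A, TUBB2B and TUBB4A each had a sequence of their own. These differences are synonymous: over the first 12 bases, all 7 beta isotypes encode the same amino acids.

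The isotypes are so alike that short reads cannot always be placed on 1 gene, which bears on the values of the closest isotypes. The coding sequences of TUBB2A and TUBB2B were 98.1% identical, with 25 differences over 1338 bases, and their transcripts shared an unbroken identical run of 725 bases. TUBA1A and TUBA1B were 97.2% identical, with 38 differences over 1356 bases and an identical run of 221 bases. TUBB stood farther from the other beta isotypes, at 80.9% to 84.7%, and alpha and beta sequences were 52.2% to 53.6% identical. The last 60 coding bases, which encode the acidic tail and the stop codon, are shown for TUBB2A and TUBB2B, the closest pair (GRCh38, minus strand), with the bases that differ between them in capitals. They lie at chr6:3153863-3153922 for TUBB2A and chr6:3224751-3224810 for TUBB2B.
TUBB2A: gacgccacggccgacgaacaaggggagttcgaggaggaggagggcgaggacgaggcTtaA
TUBB2B: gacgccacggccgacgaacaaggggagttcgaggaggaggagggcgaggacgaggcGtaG
In this stretch, 2 bases differed between TUBB2A and TUBB2B. Neither difference changes an encoded amino acid or removes the stop codon, so the stretch encodes the same tail in both.

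Every stretch of 50 or 100 bases of the representative transcript of each isotype was looked up in the transcripts of all other genes. For TUBB2A, 65.5% of the 50-base stretches and 56.4% of the 100-base stretches were found in another gene, most of them in TUBB2B. TUBA1B had 62.7% and 37.2%, and TUBB2B had 52.2% and 46.2%. At the other end, TUBB4A had 6.0% and TUBB6 1.0% of the 50-base stretches in another gene, and both had 0.0% of the 100-base stretches. Neither read length nor the way shared reads were divided is stated in the labels or headers, so the split between TUBA1A, TUBA1B and TUBA1C, and that between TUBB2A and TUBB2B, is uncertain. A short shared stretch can weigh more in a gene of low level: 5.5% of the 50-base stretches of TUBB4A are also in TUBB2A, whose coverage per base was 2803 and 2598 in barasertib and 1351 and 1326 in DMSO, against 30.7 and 31.7 in barasertib and 12.79 and 11.97 in DMSO for TUBB4A. The part of shared reads in the values of TUBB4A was not tested.

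**Figure D1:**
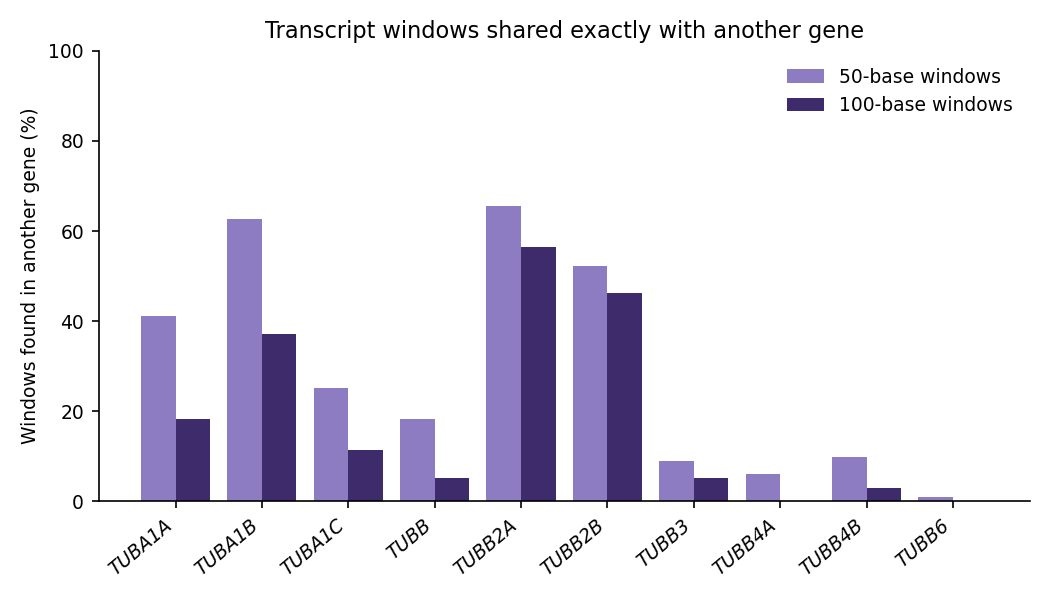
Share of all 50-base (light bars) and 100-base (dark bars) stretches of the representative transcript of each isotype that occur exactly in a transcript of another gene, in percent. TUBB2A, TUBA1B and TUBB2B have the highest bars for 50 bases, at 65.5%, 62.7% and 52.2%, and TUBB4A and TUBB6 have no dark bar.

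In hg19, the build of the deposited files, the 3 alpha genes lie together on chromosome 12, with TUBA1B at chr12:49521567-49525304 and TUBA1A at chr12:49578578-49583107 on the minus strand and TUBA1C at chr12:49621709-49667121 on the plus strand. TUBB2A (chr6:3153901-3157783, minus), TUBB2B (chr6:3224495-3227968, minus) and TUBB (chr6:30687978-30693203, plus) lie on chromosome 6. TUBB3 is at chr16:89988417-90002505 (plus), TUBB4A at chr19:6494330-6502859 (minus), TUBB4B at chr9:140135711-140138159 (plus) and TUBB6 at chr18:12307668-12329824 (plus). Each value is for a whole gene, over its exons. GENCODE v29 also places a read-through locus, AC092143.1, over TUBB3, so reads from that locus and from TUBB3 cannot be told apart.

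The values are TPM, a measure of relative transcript abundance scaled for transcript length in which the deposited values of a library sum to 1000000. The depth, roughly estimated as the largest ratio of deposited coverage to FPKM, was 4.52 to 4.59 Gb of aligned bases for barasertib and 4.22 to 4.43 Gb for DMSO. Replicates correlated at 0.992 (barasertib) and 0.993 (DMSO) over genes, and libraries of different groups at 0.979 to 0.981. The label of the line was checked against markers of the pluripotent state. The transcription factors POU5F1, SOX2 and NANOG were present in every library. POU5F1 had 3949 to 3999 TPM in barasertib and 3524 to 3708 TPM in DMSO. TNFRSF8, also on the list of embryonal carcinoma markers, was far lower. It averaged 3.21 TPM in barasertib and 3.39 TPM in DMSO. In bulk RNA, a change in the share of cells that make a transcript and a change of its amount per cell cannot be told apart, and TPM gives no amount per cell.

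Transcripts of 9 of the 10 isotypes were higher in barasertib-treated cells than in DMSO-treated cells, none was lower (also at an unadjusted p under 0.05 from limma), and TUBB alone showed no difference beyond the spread between its replicates. The rises ran from 1.21-fold for TUBA1B to 2.39-fold for TUBB4A as ratios of mean TPM. A gene was called when the adjusted p from limma, over the 13938 tested genes (mean TPM of 1 or more), was under 0.05. Over all tested genes, 22.0% were called higher and 7.44% lower, 29.5% in all. The median log2 change of the 10 isotypes was 0.46, and that of all tested genes 0.11.

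Scaling matters for such counts. Of all calls, 74.8% were rises in TPM, 49.2% after median-of-ratios scaling and 50.9% after quantile normalisation, and the median change of all genes moved to 0.00 and -0.01 under the other scalings. Under all 3 scalings, 8 isotypes stayed called as higher (all but TUBB and TUBB3), and 10.7% of all tested genes did so; 7.05% of all tested genes, and no isotype, were called lower under all 3. Both barasertib libraries lay above both DMSO libraries for 9 isotypes, as for 49.1% of all tested genes, and both lay below for no isotype, as against 19.7% of all tested genes. A rise of at least 1.5-fold was called for 4 isotypes, TUBA1A, TUBB2A, TUBB2B and TUBB4A, and for 7.12% of tested genes. Leaving out barasertib library 1 left 8 isotypes called, against 1365 of all genes in place of 3071, and leaving out barasertib library 2 left 9 isotypes, against 1598 of all genes.

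**Figure D2:**
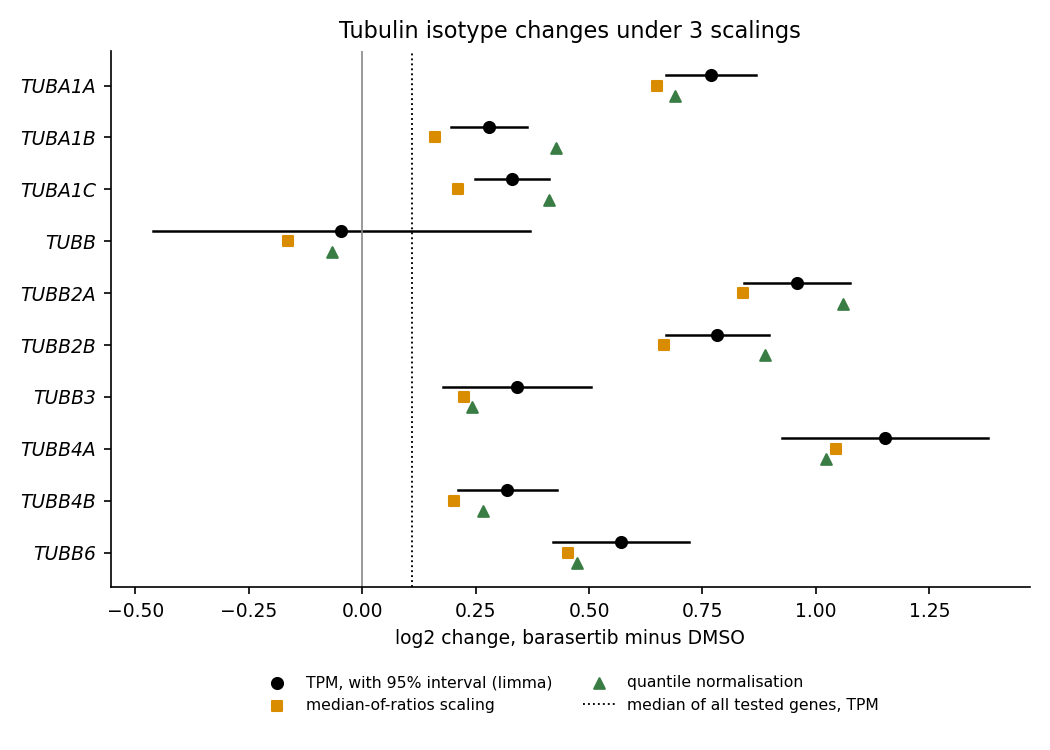
Log2 change of each isotype, barasertib minus DMSO, on 3 scalings: TPM (black circles, with the 95% interval from limma), median-of-ratios scaling (orange squares) and quantile normalisation (green triangles). The dotted line is the median of all tested genes in TPM (0.11); TUBB4A and TUBB2A lie farthest to the right, and TUBB is the only isotype on the left of 0 under each scaling.

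Among the alpha isotypes, TUBA1A, the main alpha tubulin of the developing brain, had 333 and 331 TPM in the 2 barasertib libraries, against 192 and 197 TPM in the DMSO libraries. Both treated libraries lay above both controls, and the replicates of each group were close together. The log2 change was 0.77 ± 0.04 (SE, adjusted p from limma 0.000340), and 4.56% of all tested genes had a larger positive change. TUBA1B, the widely made alpha tubulin, had 1386 and 1350 TPM in barasertib, against 1112 and 1143 TPM in DMSO. Its change was the smallest of the called isotypes, at 0.28 ± 0.03 (SE, adjusted p from limma 0.00323), and 25.9% of tested genes had a larger one. TUBA1C, its close copy, had 1127 and 1120 TPM in barasertib, against 882 and 906 TPM in DMSO, a log2 change of 0.33 ± 0.03 (SE, adjusted p from limma 0.00186). The groups did not overlap for any of the 3.

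The largest rises in TPM were those of the beta pair TUBB2A and TUBB2B, neighbours on chromosome 6 that are both prominent in neurons. TUBB2A had 1521 and 1442 TPM in barasertib, against 789 and 736 TPM in DMSO. It averaged 1482 ± 55.9 TPM in barasertib and 762 ± 37.1 TPM in DMSO (SD, n = 2 each), a log2 change of 0.96 ± 0.05 (SE, adjusted p from limma 0.000307), with a larger change in 2.60% of tested genes. TUBB2B had 1342 and 1283 TPM in barasertib, against 790 and 736 TPM in DMSO. It averaged 1312 ± 41.6 TPM in barasertib and 763 ± 38.0 TPM in DMSO (SD, n = 2 each), a log2 change of 0.78 ± 0.05 (SE, adjusted p from limma 0.000419). The 2 genes had almost the same TPM in each DMSO library, and TUBB2A was the higher of them in both barasertib libraries. By deposited coverage per base, TUBB2A was below TUBB2B in DMSO (1351 and 1326, against 1462 and 1429). It was above TUBB2B in barasertib (2803 and 2598, against 2670 and 2497).

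TUBB4A, a beta tubulin known from myelinating and nerve cells, was the least abundant isotype in TPM and had the largest log2 change of the 10. It had 16.5 and 17.7 TPM in barasertib, against 7.49 and 6.79 TPM in DMSO. The log2 change was 1.15 ± 0.09 (SE, adjusted p from limma 0.00100), which is 2.22-fold on the log2(TPM + 1) scale, and 1.43% of tested genes had a larger one. TUBB6 had 90.8 and 85.7 TPM in barasertib, against 61.0 and 57.2 TPM in DMSO, a log2 change of 0.57 ± 0.06 (SE, adjusted p from limma 0.00215). Both were called as higher under each scaling.

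TUBB4B, a widely made beta tubulin that is also used in cilia, had 345 and 330 TPM in barasertib, against 265 and 275 TPM in DMSO, a log2 change of 0.32 ± 0.04 (SE, adjusted p from limma 0.00504). TUBB3, the beta tubulin used as a marker of neurons, had 101 and 90.6 TPM in barasertib, against 76.2 and 74.4 TPM in DMSO. Its log2 change was 0.34 ± 0.07 (SE, adjusted p from limma 0.0143), and the groups did not overlap. This was the one call among the 9 that other settings ended: the adjusted p from limma was 0.0630 after median-of-ratios scaling, 0.0529 after quantile normalisation, 0.0538 without the mean-variance trend and 0.0559 without barasertib library 1.

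TUBB, the main beta tubulin of many dividing cells, did not pass the test. It had 397 and 534 TPM in barasertib, against 415 and 546 TPM in DMSO, so the 2 groups covered nearly the same range. The log2 change was -0.05 ± 0.17 (SE, adjusted p from limma 0.858), with a 95% interval of -0.46 to 0.37, so a rise as large as that of TUBB2A lay outside it and a rise as large as that of TUBA1B lay inside. Library 2 exceeded library 1 by 1.35-fold in barasertib and by 1.32-fold in DMSO. Of the 1717 genes averaging 100 TPM or more, 9 differed at least that much between replicates in both groups, 6 of them in the same direction in both. The largest replicate difference of another isotype was 0.16 on the log2 scale. Without barasertib library 1 the change of TUBB was 0.17, and without DMSO library 2 it was 0.15, with adjusted p from limma of 0.517 and 0.495.

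**Figure D3:**
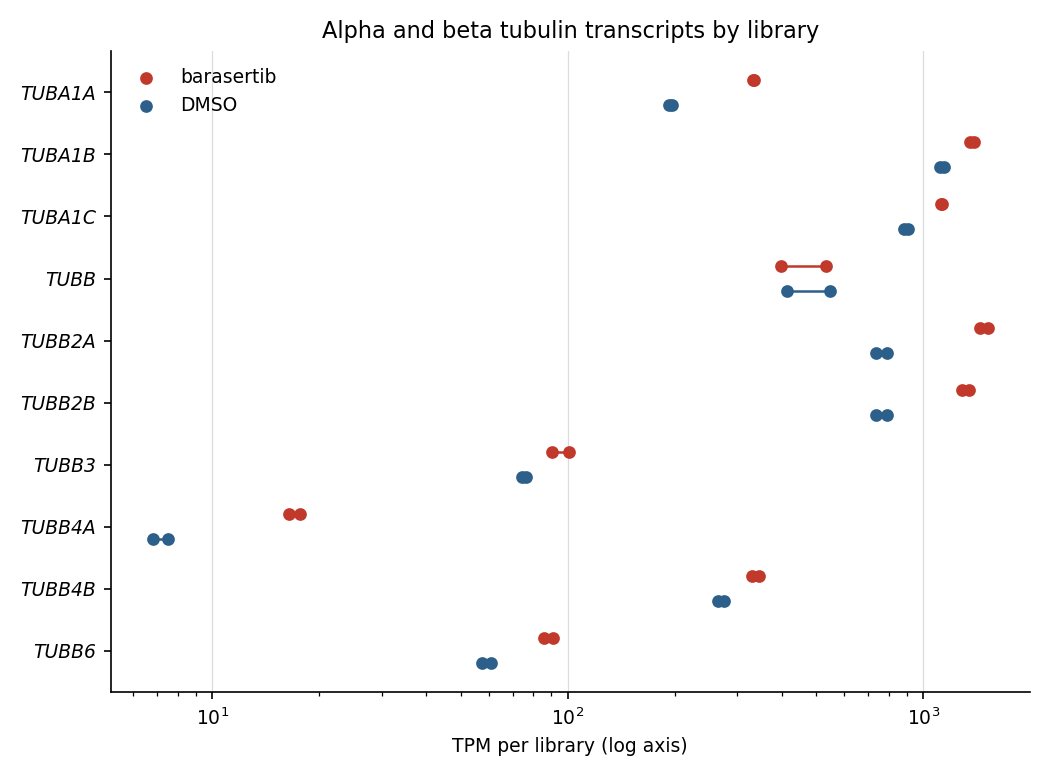
TPM of each isotype in each library on a log axis, barasertib in red above DMSO in blue, with a line between the 2 libraries of a group. Both red points lie to the right of both blue points for every isotype except TUBB, whose red points (397 and 534 TPM) and blue points (415 and 546 TPM) overlap.

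The order of the isotypes by level differed between the groups. In barasertib the order from the highest mean TPM was TUBB2A, TUBA1B, TUBB2B, TUBA1C, TUBB, TUBB4B, TUBA1A, TUBB3, TUBB6 and TUBB4A. In DMSO it was TUBA1B, TUBA1C, TUBB2B, TUBB2A, TUBB, TUBB4B, TUBA1A, TUBB3, TUBB6 and TUBB4A. The ranges of neighbours overlapped for TUBB4B and TUBA1A and for TUBB3 and TUBB6 in barasertib, and for TUBB2B and TUBB2A in DMSO. Ranked among all gene IDs of a library, TUBB2A stood at places 85 and 90 in barasertib, against 167 and 173 in DMSO, and TUBB4A at 7569 and 7313 in barasertib, against 9684 and 9932 in DMSO. The deposited coverage per base gives another place to TUBA1C, whose coverage was 576 and 560 in barasertib, against 419 and 452 in DMSO, while that of TUBA1B was 2758 and 2627 in barasertib, against 2058 and 2219 in DMSO. TUBB3, above TUBB6 in mean TPM, had a coverage of 32.0 and 28.1 in barasertib, against 22.5 and 23.0 in DMSO, below that of TUBB6 at 110 and 102 in barasertib and 67.5 and 67.3 in DMSO. The places of TUBA1C and TUBB3 therefore depended on the measure, and so did others in barasertib. There TUBB4B had a coverage of 686 and 642, against 530 and 692 for TUBB, with the larger mean share of coverage (6.30% against 5.82%). TUBB4A, at 30.7 and 31.7, had a larger mean share of coverage than TUBB3 (0.297% against 0.285%). TUBB2A, at 2803 and 2598, was above TUBA1B in barasertib library 1 and below it in library 2.

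The summed level of the 10 isotypes was 6660 and 6585 TPM in barasertib, against 4589 and 4677 TPM in DMSO. That is 0.662% ± 0.00532 of each library in barasertib and 0.463% ± 0.00627 in DMSO (SD, n = 2 each), a ratio of 1.43. Most of the difference was in the beta class. The 7 beta isotypes together had 3799 ± 21.1 TPM in barasertib and 2417 ± 20.1 TPM in DMSO, 1.57-fold higher, and the 3 alpha isotypes 2824 ± 32.1 TPM in barasertib and 2216 ± 42.6 TPM in DMSO, 1.27-fold higher (SD, n = 2 each). The ratio of alpha to beta transcripts was 0.743 ± 0.00433 in barasertib and 0.917 ± 0.0100 in DMSO. The 2 groups were separate for each of these sums. With 2 libraries against 2, an exact permutation test (two-sided) cannot give a p below 0.333, and that was its value for each sum and ratio of this paragraph.

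As shares of the summed TPM of the 10 isotypes, which a scaling factor of the library leaves as they are, TUBB2A and TUBB2B held more in barasertib than in DMSO. TUBB2A made up 22.8% and 21.9% of the pool in barasertib, against 17.2% and 15.7% in DMSO, a difference of 5.91 percentage points. TUBB2B made up 20.1% and 19.5% in barasertib, against 17.2% and 15.7% in DMSO, a difference of 3.34 points. Together the pair held 42.2% ± 1.13 of the pool in barasertib and 32.9% ± 2.07 in DMSO (SD, n = 2 each). TPM divides reads by transcript length, so the sum for the pair also depends on how shared reads were split between its 2 genes.

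TUBA1A and TUBB4A also held larger shares. TUBA1A had 5.02% ± 0.0151 in barasertib and 4.20% ± 0.0142 in DMSO (SD, n = 2 each), and TUBB4A had 0.258% ± 0.0152 in barasertib and 0.154% ± 0.0128 in DMSO (SD, n = 2 each). The other 5 isotypes without overlap held smaller shares, although 4 of them were called as higher in TPM. TUBA1B had 20.8% and 20.5% in barasertib, against 24.2% and 24.4% in DMSO, a difference of -3.68 points. TUBA1C had 16.9% and 17.0% in barasertib, against 19.2% and 19.4% in DMSO, a difference of -2.32 points. TUBB4B had 5.10% ± 0.118 in barasertib and 5.83% ± 0.0707 in DMSO, and TUBB3 had 1.45% ± 0.10 in barasertib and 1.63% ± 0.0495 in DMSO (SD, n = 2 each). The difference of TUBB3 was -0.180 points, and -0.109 without barasertib library 2. As shares of the summed coverage, TUBA1C had 5.36% and 5.42% in barasertib, against 6.27% and 6.39% in DMSO, a difference of -0.939 points. The coverage difference was -5.53 points for TUBA1B, -1.15 for TUBB4B (-0.735 in TPM) and -0.0458 for TUBB3, so these sizes depended on the measure while their signs did not.

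TUBB had 5.96% and 8.12% of the pool in barasertib, against 9.04% and 11.7% in DMSO, so its share was lower without overlap although its TPM overlapped. Within the beta class the share of TUBB was 12.3% ± 2.62 in barasertib and 19.9% ± 3.66 in DMSO (SD, n = 2 each). The difference in the pool was -3.31 points, and it was -2.24 without barasertib library 1, -2.0 without DMSO library 2, -4.39 without barasertib library 2 and -4.63 without DMSO library 1. TUBB6 had 1.36% and 1.30% in barasertib, against 1.33% and 1.22% in DMSO, and its groups overlapped. Of the 10 shares, 9 did not overlap between the groups, 4 of them higher and 5 lower in barasertib. Shares of 1 pool are not independent, since they sum to a whole. The exact permutation p (two-sided, n = 2 each) was 0.333, the smallest possible, for those 9 and 0.667 for TUBB6, so this test could not have passed 0.05 for any share.

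**Figure D4:**
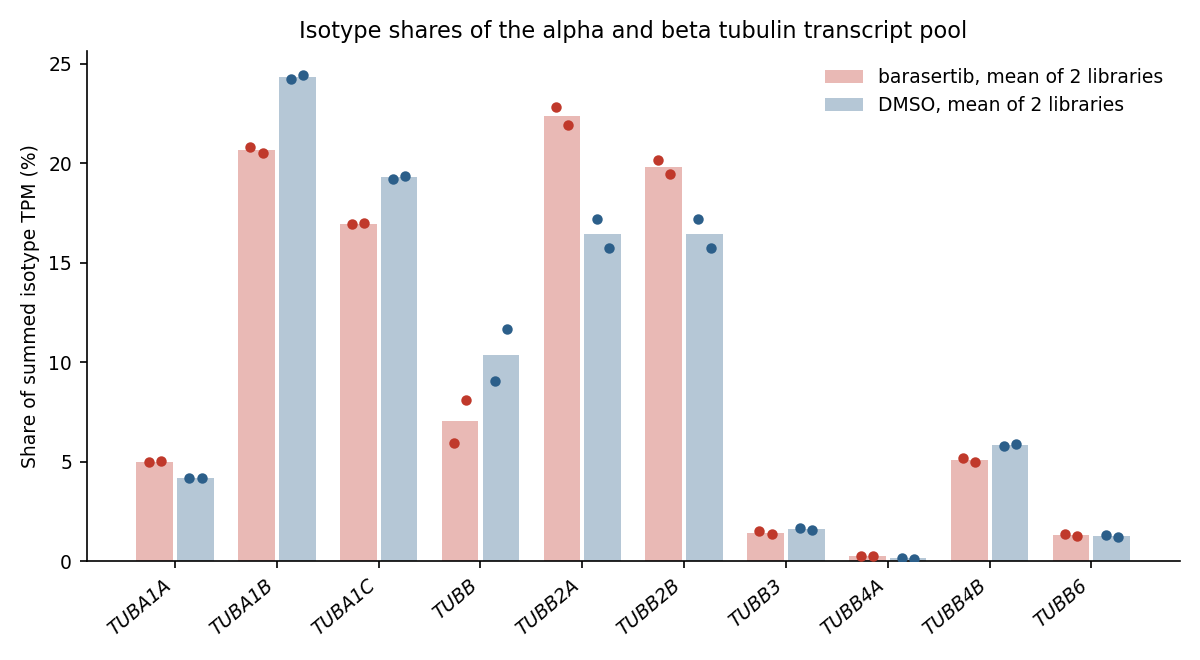
Share of each isotype in the summed TPM of the 10 isotypes, in percent, for barasertib (red) and DMSO (blue); bars are means of 2 libraries and points are the libraries. TUBB2A and TUBB2B hold 22.4% and 19.8% in barasertib, above 16.5% each in DMSO, while TUBA1B, TUBA1C and TUBB hold smaller shares in barasertib.

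Ratios of TPM within pairs of isotypes differed as well. TUBB2A over TUBB2B was 1.13 and 1.12 in barasertib, against 0.999 and 1.00 in DMSO. TUBA1A over TUBA1B was 0.241 and 0.245 in barasertib, against 0.173 and 0.172 in DMSO. TUBA1C over TUBA1B differed less, at 0.813 and 0.830 in barasertib, against 0.793 in both DMSO libraries. TUBB4A over TUBB4B, a less close pair (87.3% identical in coding sequence), was 0.0478 and 0.0536 in barasertib, against 0.0282 and 0.0247 in DMSO. Each of these ratios was separate between the groups, with an exact permutation p of 0.333 (two-sided, n = 2 each), the smallest possible.

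To set sequence that differs beside coding sequence that barely does, the 250 bases before the transcription start are shown for TUBA1A and TUBA1B and for TUBB2A and TUBB2B, the pairs with a single start each in RefSeq (GRCh38.p14, all on the minus strand, written along the gene). They lie at chr12:49189081-49189330 for TUBA1A, chr12:49131396-49131645 for TUBA1B, chr6:3157545-3157794 for TUBB2A and chr6:3227654-3227903 for TUBB2B. Capitals mark the CCAAT box (CCAAT, or ATTGG on the other strand) and the TATA box (TATAAA, or TTTATA on the other strand); no such match overlapped another.
TUBA1A: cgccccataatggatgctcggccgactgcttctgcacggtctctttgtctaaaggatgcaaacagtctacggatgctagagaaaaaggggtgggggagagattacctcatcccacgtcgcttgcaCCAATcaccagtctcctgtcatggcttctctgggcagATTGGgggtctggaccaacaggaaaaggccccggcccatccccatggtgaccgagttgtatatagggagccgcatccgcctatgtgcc
TUBA1B: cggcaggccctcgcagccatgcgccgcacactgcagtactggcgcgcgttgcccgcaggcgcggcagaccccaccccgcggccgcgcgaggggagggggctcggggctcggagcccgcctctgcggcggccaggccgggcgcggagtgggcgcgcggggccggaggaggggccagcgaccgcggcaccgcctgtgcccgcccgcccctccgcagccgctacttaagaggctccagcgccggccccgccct
TUBB2A: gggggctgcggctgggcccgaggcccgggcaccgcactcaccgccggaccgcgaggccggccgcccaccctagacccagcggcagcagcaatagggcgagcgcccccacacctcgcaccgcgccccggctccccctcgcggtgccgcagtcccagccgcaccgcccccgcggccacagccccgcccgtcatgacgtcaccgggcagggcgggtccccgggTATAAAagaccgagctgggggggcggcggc
TUBB2B: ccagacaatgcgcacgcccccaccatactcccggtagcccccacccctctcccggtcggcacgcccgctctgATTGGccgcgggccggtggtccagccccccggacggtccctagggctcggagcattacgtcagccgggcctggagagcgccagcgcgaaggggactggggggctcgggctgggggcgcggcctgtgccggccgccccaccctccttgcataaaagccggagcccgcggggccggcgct
Aligned end to end, the TUBA1A and TUBA1B promoters were 44.7% identical and those of TUBB2A and TUBB2B 47.1%, against 97.2% and 98.1% for the coding sequences. Promoters of an alpha and a beta isotype, aligned in the same way, ran from 39.1% (TUBA1A and TUBB4B) to 51.3% (TUBA1B and TUBB2B). The identity within the pairs was thus no higher than that between the classes. TUBA1A had 2 CCAAT boxes and TUBA1B none. TUBB2A had an exact TATAAA match at position -30, counted from the start, and no CCAAT box. TUBB2B had a CCAAT box at position -178 and no exact TATAAA match. Over the 16 promoters that RefSeq lists for the 10 isotypes, 10 held a CCAAT box, from 8 isotypes, and 1 held an exact TATAAA match. The boxes at -104 and -197 in overlapping promoters of TUBA1C are the same bases, counted for both, so these promoters are not independent. Among 35116 promoters of the same length, 32.0% held a CCAAT box and 10.7% an exact TATAAA match. Variants of the TATA box that differ from this string were not counted, so a promoter without a match may still hold one. Such matches are letters in a window, and binding at them was not measured here.

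The other alpha and beta tubulin genes were close to absent. TUBA3C, TUBA3D, TUBA3E, TUBA4A, TUBA8, TUBAL3, TUBB1 and TUBB8 summed to 3.39 and 3.10 TPM in barasertib, against 1.63 and 2.53 TPM in DMSO. TUBA8 was the only one with a mean of at least 1 TPM, at 1.60 and 1.71 TPM in barasertib, against 0.968 and 1.22 TPM in DMSO, and it was not called (log2 change 0.34, adjusted p from limma 0.192). TUBA3C and TUBA3E were listed at 0 in every library. The pseudogene loci with a mean above 1 TPM, TUBA3FP and TUBBP5, summed to 4.24 and 4.06 TPM in barasertib, against 4.13 and 3.86 TPM in DMSO.

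Over 7 lists of genes that act on tubulin, 27 of the 97 tested genes were called in either direction, 27.8% beside 29.5% of all tested genes. The median log2 changes of these lists ran from -0.02 to 0.10, beside 0.46 for the isotypes and 0.11 for all tested genes. The nucleation list holds gamma, delta and epsilon tubulin, the ring complex that starts microtubules and the augmin complex that branches them. Of its 21 genes, all tested, 2 were called higher and 1 lower, with a median of 0.10. The gamma tubulin gene TUBG1 had 170 and 158 TPM in barasertib, against 155 and 147 TPM in DMSO (log2 change 0.12, adjusted p from limma 0.158). All 3 called genes encode augmin subunits: HAUS6 rose by 0.27 and HAUS8 by 0.25 on the log2 scale, and HAUS4 fell by 0.37 (adjusted p from limma 0.0406, 0.0310 and 0.00914). Only HAUS4 was called under all 3 scalings. The count of rises was 1 without barasertib library 1 and 0 without each of the other 3 libraries.

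**Figure D5:**
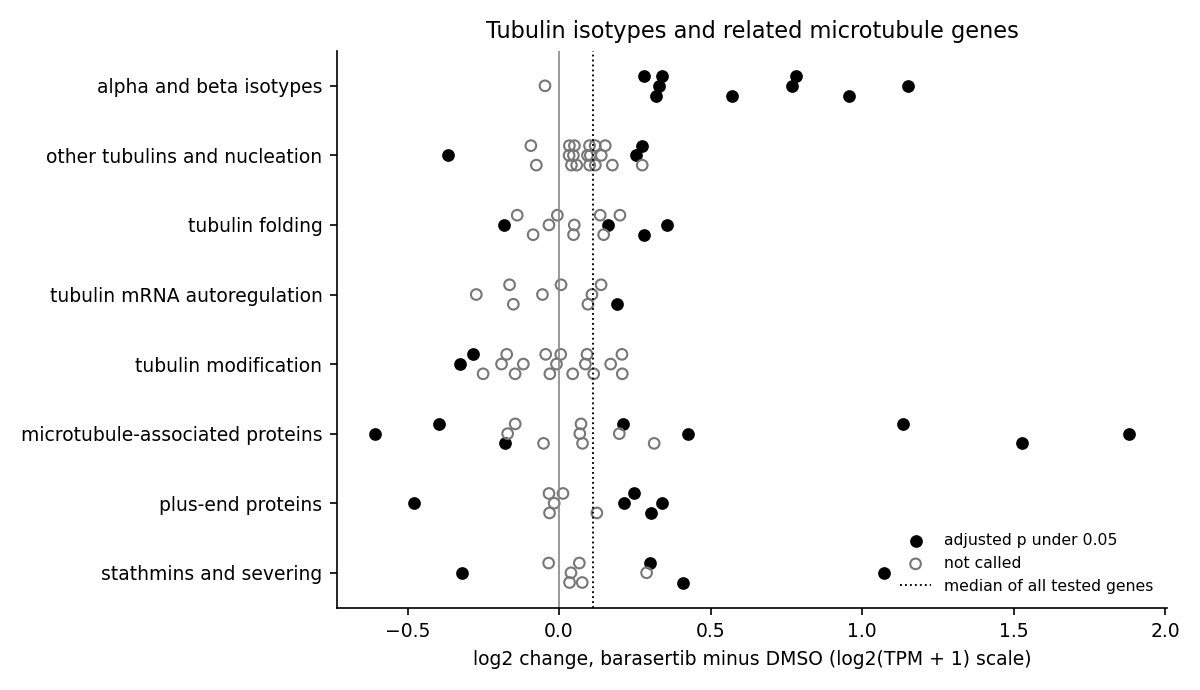
Log2 change, barasertib minus DMSO, of every tested gene of the isotype group (first line) and of 7 lists of genes that act on tubulin or microtubules; filled points have an adjusted p from limma under 0.05 and open points do not. The isotypes lie mostly to the right of the median of all tested genes (dotted line, 0.11), whereas the other lists spread around it, with MAP6 at 1.88 and DCLK1 at 1.53 as the points farthest to the right.

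For the autoregulation of tubulin transcripts, the list held TTC5, its partner SCAPER and subunits of the deadenylase complex that they recruit. Of the 9 genes, all tested, 1 was called higher and none lower, with a median of 0.01. At an unadjusted p under 0.05 from limma, 3 were lower: SCAPER, CNOT1 and CNOT3 (log2 changes -0.27, -0.16 and -0.15). The same 3 were called lower under each of the other scalings. For SCAPER the adjusted p from limma was 0.0355 after median-of-ratios scaling and 0.0353 after quantile normalisation. TTC5 had 11.2 and 11.7 TPM in barasertib, against 10.3 and 12.6 TPM in DMSO, and the groups overlapped (log2 change 0.01, adjusted p from limma 0.973; -0.10 after median-of-ratios scaling). CNOT8, a catalytic subunit of the deadenylase, rose by 0.19 (adjusted p from limma 0.0392), but this call was absent under both other scalings and when any one library was left out. The activity of this pathway was not measured.

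Newly made tubulin is folded with the help of prefoldin and the tubulin cofactors. Of the 13 genes of that list, all tested, 3 were called higher and 1 lower, with a median of 0.05. PFDN1, a prefoldin subunit, had 90.4 and 93.3 TPM in barasertib, against 71.5 and 71.4 TPM in DMSO, and rose by 0.36 (adjusted p from limma 0.00532). VBP1, another prefoldin subunit, rose by 0.28 and ARL2, a small GTPase that works with the cofactors, fell by 0.18 (adjusted p from limma 0.0131 and 0.0366). Under all 3 scalings PFDN1 and ARL2 stayed called. The list had 1 gene called higher and 3 lower after median-of-ratios scaling, and 1 higher and 2 lower after quantile normalisation. The count of rises was 1 without barasertib library 2, and no fall was called when any one library was left out.

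The enzymes that modify tubulin add or remove tyrosine, glutamate, glycine or acetyl groups. Of the 27 genes, 18 averaged 1 TPM or more, and of these none was called higher and 2 were called lower, with a median of -0.02. At an unadjusted p under 0.05 from limma, 1 was higher and 4 were lower, and 4 were called lower under each of the other scalings. HDAC6, which removes acetyl groups from alpha tubulin, had 58.5 and 56.3 TPM in barasertib, against 72.7 and 71.8 TPM in DMSO, and fell by 0.33 (adjusted p from limma 0.00833). SVBP, the partner of the vasohibins that remove the terminal tyrosine, fell by 0.28 (adjusted p from limma 0.0107). TTL, which adds the tyrosine back, had 30.8 and 34.2 TPM in barasertib, against 28.3 and 31.6 TPM in DMSO, with overlapping groups (adjusted p from limma 0.352). Without DMSO library 1 the count of falls was 1.

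Proteins that bind along microtubules held the largest single changes of these lists. Of 18 genes, 16 were tested, 5 were called higher and 3 lower, with a median of 0.07, and 4 of the rises and all 3 falls were called under all 3 scalings. MAP6, which stabilises microtubules against cold, had 4.36 and 4.20 TPM in barasertib, against 0.482 and 0.384 TPM in DMSO (log2 change 1.88, adjusted p from limma 0.00112). DCLK1, a doublecortin-like kinase that binds microtubules, had 13.0 and 13.3 TPM in barasertib, against 3.82 and 3.97 TPM in DMSO (log2 change 1.53, adjusted p from limma 0.000465). MAP1A, a brain microtubule protein, had 4.94 and 4.80 TPM in barasertib, against 1.57 and 1.77 TPM in DMSO (log2 change 1.14, adjusted p from limma 0.00291). All 3 lay below TUBB4A, the least abundant isotype in TPM, in every library of the same group. MAP1B, the related protein of young neurons, had 62.5 and 68.2 TPM in barasertib, against 68.2 and 67.2 TPM in DMSO (log2 change -0.05, adjusted p from limma 0.573). The count of falls was 1 without barasertib library 2.

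Plus-end proteins control growth at the microtubule tip. Of 10 genes, all tested, 4 were called higher and 1 lower, with a median of 0.07, but none of the 4 rises was called under both other scalings. The counts of rises and falls ran from 0 to 2 and from 0 to 1 when 1 library was left out, with 0 rises without either barasertib library or DMSO library 1, 2 without DMSO library 2, and no fall without barasertib library 1. CLIP1, a linker at the growing end, had 14.9 and 15.8 TPM in barasertib, against 20.6 and 22.8 TPM in DMSO, and fell by 0.48 (adjusted p from limma 0.00998). SLAIN1 rose by 0.34 and MAPRE2 by 0.30 (adjusted p from limma 0.0258 and 0.0284).

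Stathmins bind free tubulin dimers, and severing enzymes cut microtubules. Of their 11 genes, 10 were tested, 3 were called higher and 1 lower, with a median of 0.07. STMN1, the stathmin of dividing cells, had 1165 and 1197 TPM in barasertib, against 1124 and 1175 TPM in DMSO, and its groups overlapped (log2 change 0.04, adjusted p from limma 0.465; -0.08 after median-of-ratios scaling, and called higher at 0.14 after quantile normalisation). STMN3, a stathmin of neurons, had 10.5 and 9.36 TPM in barasertib, against 4.33 and 4.04 TPM in DMSO (log2 change 1.07, adjusted p from limma 0.00184). STMN2, another neuronal stathmin, fell by 0.32 and FIGNL1, of the severing family, rose by 0.41 (adjusted p from limma 0.0211 and 0.0411). STMN3 and STMN2 were called under all 3 scalings, and FIGNL1 under neither of the other 2 (adjusted p from limma 0.0996 after median-of-ratios scaling and 0.173 after quantile normalisation). The rises numbered 1 when any one library was left out, and no fall was called without either barasertib library or DMSO library 2.

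Several of the isotypes that rose most are known from neurons, so the neuron markers were set beside them. Their 13 genes summed to 138 and 144 TPM in barasertib, against 146 and 156 TPM in DMSO. STMN2 and GAP43 made up most of this sum, NEFM was listed at 0 in every library, and ELAVL3 and ELAVL4 were below 1 TPM in every library. Of the 8 markers too low to be tested, 4 had both barasertib libraries above both DMSO libraries and the other 4 overlapped. Among all tested genes, whose levels are higher, 49.1% had both barasertib libraries above both DMSO libraries, a share like that of these markers. RBFOX3, a nuclear protein of neurons, had 0.764 and 0.750 TPM in barasertib, against 0.219 and 0.208 TPM in DMSO, and the synaptic vesicle gene SYP had 1.13 and 0.917 TPM in barasertib, against 0.560 and 0.295 TPM in DMSO. SNAP25 averaged 0.426 TPM in barasertib and 0.169 TPM in DMSO, and NEFL 0.794 TPM in barasertib and 0.235 TPM in DMSO. Of the 13, 5 were tested, 2 were called higher and 1 lower, beside 22.0% and 7.44% of all tested genes. The fall was that of STMN2 (log2 change -0.32, adjusted p from limma 0.0211), called under all 3 scalings. DCX (log2 change -0.17) and MAP2 (0.31) were not called (adjusted p from limma 0.573 and 0.250). The filament gene INA had 8.97 and 9.30 TPM in barasertib, against 3.94 and 4.42 TPM in DMSO (log2 change 0.97, adjusted p from limma 0.00233). GAP43, of the growth cone, rose by 0.31 (adjusted p from limma 0.0423), a call that was absent under both other scalings. When a library other than DMSO library 1 was left out, 1 rise was called, and the fall was not called without either barasertib library or DMSO library 2. The fibroblast markers summed to 3.59 and 3.21 TPM in barasertib, against 1.68 and 2.30 TPM in DMSO, with 1 of 6 tested and none called. Their part in the isotype values was not tested.

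The 10 embryonal carcinoma markers summed to 6545 and 6178 TPM in barasertib, against 5587 and 5487 TPM in DMSO. Of them, 5 were called higher and 1 lower, beside 22.0% and 7.44% of all tested genes. Of the rises, 2 were called under all 3 scalings. The fall was that of SOX2, also called under all 3 scalings. SOX2 had 381 and 398 TPM in barasertib, against 456 and 446 TPM in DMSO (log2 change -0.21, adjusted p from limma 0.0143). PODXL had 506 and 167 TPM in barasertib, against 320 and 326 TPM in DMSO, and was not called. DNMT3B, a DNA methyltransferase of early embryonic cells, had 459 and 433 TPM in barasertib, against 254 and 228 TPM in DMSO (log2 change 0.89, adjusted p from limma 0.000652). NANOG had 246 and 258 TPM in barasertib, against 168 and 159 TPM in DMSO (log2 change 0.62, adjusted p from limma 0.00103). DPPA4 had 277 and 293 TPM in barasertib, against 90.4 and 188 TPM in DMSO (log2 change 1.12, adjusted p from limma 0.0390), and was not called under the other scalings (adjusted p from limma 0.0616 after median-of-ratios scaling and 0.0602 after quantile normalisation). The count of rises was 2 without barasertib library 1, and no fall was called without DMSO library 1. Whether these changes and those of the isotypes occurred in the same cells was not tested.

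The genes whose values followed those of TUBB4A, the isotype with the largest change, most closely over the 4 libraries were JUN, OLIG3 and DPPA3, at distances of 0.06, 0.07 and 0.08 on the centred log2 scale among 9041 genes averaging 10 TPM or more. JUN, a transcription factor of the AP-1 family, had 57.2 and 58.2 TPM in barasertib, against 27.3 and 24.2 TPM in DMSO. OLIG3, a transcription factor of neural progenitors, had 80.5 and 85.2 TPM in barasertib, against 39.3 and 37.3 TPM in DMSO. DPPA3, a factor of germ cells and the early embryo, had 202 and 213 TPM in barasertib, against 91.4 and 84.7 TPM in DMSO. With 4 libraries, likeness of this kind says no more than that the genes had similar values in each group.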

How the data were processed

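Total RNA of NCC-IT-A3 cells was measured as polyadenylated RNA with a stranded kit, per the labels' protocols, in 2 libraries of barasertib-treated and 2 of DMSO-treated cells. Per the submitters' processing notes, the authors used HISAT2, StringTie and the hg19 build, with no versions named. Neither those notes nor the labels say if the summary was strand-specific. The deposited files hold, per the file headers, coverage (a signal, the mean depth over a gene), FPKM and TPM, and no counts. The deposited TPM values sum to 1000000 per library. Depth was estimated as the largest ratio of deposited coverage to deposited FPKM in a library, with entries of low FPKM left out. Under StringTie's definition a ratio shared by all genes would give the number of aligned bases. The ratio differed between genes, so the estimate is rough and not a stated total.

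From there, TPM of entries with the same gene ID were summed. Symbols came from RefSeq (GRCh38.p14), which matched 27559 of 27685 IDs and left 126 unmatched. Genes averaging 1 TPM or more were tested (limma 3.58.1, R 4.3.3) on the scale log2(TPM + 1) with no term but group and with a trend of variance on mean. The moderated test was two-sided, with 2 residual and 4.09 prior degrees of freedom and Benjamini-Hochberg adjustment over 13938 genes at 0.05. Shares, sums and ratios were compared with exact permutation tests. Libraries with the same replicate number shared little deviation over all tested genes (correlation of same-numbered deviations 0.0229), so no block was used. This correlation cannot show that the libraries were unpaired.

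The isotypes and the gene lists were chosen with earlier results of these data known. Named genes are the 10 isotypes, the other alpha and beta tubulins, up to 3 called members of each further list with the largest change, and TUBG1, TTC5, TTL, STMN1 and MAP1B. Marker genes named beyond that rule, for the label check, the neuron list and the embryonal carcinoma list, were chosen after their values were seen. So were SCAPER, CNOT1 and CNOT3. The alternatives were no filter, a filter at 5 TPM, pseudocounts 0.1 and 5, FPKM for TPM, median-of-ratios and quantile scaling, no trend, robust moderation, the highest entry per gene ID, a replicate block, another denominator of shares and each library left out. Coverage in place of TPM for the order of levels and the shares was added after seeing the data. Transcript and promoter sequences came from GENCODE v29 and RefSeq, and alignments were made with Biopython 1.88 in Python 3.11.15.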

Additional observations from a re-analysis of the deposited data

How the results depend on the processing

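With 9 isotypes other than TUBB and 15 alternative settings, 131 of 135 changes kept their direction and their side of the threshold, and the other 4, all of TUBB3, kept the direction and lost the call. The number of isotypes called higher was 8 to 9 in every alternative, and none was called lower. TUBB changed sign without barasertib library 1 (0.17) and without DMSO library 2 (0.15), and its change ran from -0.26 to 0.17 over the left-out libraries; the cause was not tested. Over all tested genes, 1668 were higher and 1721 lower after median-of-ratios scaling and 1649 and 1590 after quantile normalisation, in place of 3071 and 1037. Without the mean-variance trend 674 were lower. Leaving out 1 library gave 1365 to 2181 higher and 601 to 699 lower, with 1 library fewer in the fit, the lone library of a group being assumed to vary like the other group.

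The replicate numbers of the labels as a block left 9 isotypes called higher and 0 lower, with 3218 of all genes higher and 1080 lower. The numbers are not known to pair the libraries, and the block changed no call of an isotype. With the block, the adjusted p from limma of TUBB was 0.398 in place of 0.858.

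When 1 library was left out, the share difference in percentage points ran from 0.804 to 0.826 for TUBA1A, -3.83 to -3.52 for TUBA1B, -2.40 to -2.24 for TUBA1C, -4.63 to -2.0 for TUBB, 5.19 to 6.63 for TUBB2A, 2.61 to 4.08 for TUBB2B, -0.251 to -0.109 for TUBB3, 0.0932 to 0.115 for TUBB4A, -0.818 to -0.652 for TUBB4B and 0.00321 to 0.108 for TUBB6. The difference of the summed level ran from 1945 to 2034 TPM. With deposited coverage in place of TPM, chosen after seeing the data, the share difference was 0.730 for TUBA1A, -5.53 for TUBA1B, -0.939 for TUBA1C, -0.0458 for TUBB3 and -1.15 for TUBB4B, and the other 5 stayed within the spread between replicates; the cause was not tested. Each kept its sign under coverage and with 1 library left out, and FPKM, the highest entry per gene ID and the wider denominator left each share difference within the spread between replicates. The calls in the lists of related genes varied more, as given beside each. Depth is known only as an estimate of aligned bases, and no counts are at hand, so no counting error could be given.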
